A study of Rattus norvegicus with 24 samples.

Results

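The effect of a 24 h fast that was shared by 3 tissues of the rat was examined at the level of messenger RNA: interscapular brown adipose tissue (BAT), perinephric white adipose tissue (WAT) and liver. A gene was taken as shared where the mean log2 signal of fasted animals minus that of fed animals had the same sign in BAT, WAT and liver. Of the 14217 named genes on the array, 9168 were bright enough in all 3 tissues to be tested, and 4875 of these had the same sign in all 3 tissues, which is 53.2% of genes tested. Of these, 2551 were higher (27.8%) and 2324 lower (25.3%) in fasted animals. The other 4293 tested genes changed sign between tissues, and 5049 named genes were too dim in at least 1 tissue.

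The animals were male Wistar rats, an outbred laboratory strain, aged 7 weeks at the start and 8 weeks at sampling, with no genetic alteration named in the labels. For 7 days all of them could eat between hour 10 and hour 16 only, with water throughout. On day 8 the fasted animals (numbered 6, 8, 9 and 10) received no food, so that they had gone 24 h without food when tissues were taken at hour 16, whereas the fed animals (1, 2, 4 and 5) had just passed a further feeding window. There was 1 Affymetrix array per tissue and animal number, which made 24 arrays in 6 groups of 4. Equal numbers in different tissues are taken here to mark the same animal, which the labels do not state. The contrast therefore sets fasted animals against animals sampled at the end of their daily meal, at 1 clock hour.

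When food is withdrawn, insulin falls while glucagon and glucocorticoids rise. Liver then turns to making glucose and ketone bodies, and both kinds of fat release fatty acids. Low insulin relieves FoxO transcription factors of inhibition by Akt and lowers the activity of SREBP factors, which drive genes of fatty acid and sterol synthesis. Fatty acids reaching a cell activate PPAR receptors, while lack of amino acids and growth factors quiets mTORC1 and favours autophagy over the building of ribosomes.

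Signals are linear MAS5 probe set intensities brought to 1 trimmed mean, 129, on every array. Before scaling the trimmed means ran from 93.4 to 206, and arrays of 1 group correlated at 0.924 to 0.96. Tissue labels were borne out by defining markers: Ucp1, the uncoupling protein of brown fat, read 10423 to 11270 in fasted and 10446 to 13370 in fed BAT, against at most 108 on any WAT array. Adipoq, the adipocyte hormone adiponectin, read at least 4258 on every BAT and WAT array and at most 15.2 on any liver array, and Apoa1, a hepatocyte apolipoprotein, read at least 5487 on every liver array and at most 28.1 elsewhere. Skeletal muscle markers moved with the groups in fat. Summed over 13 markers, their signal was 54439 to 70933 in fasted BAT and 412 to 45363 in fed BAT, with fed animal 5 at the top of the fed range. In WAT the sum was 198 to 57025 in fasted animals, where animals 8 and 10 were high, and 152 to 202 in fed animals. Liver had 65.0 to 129 in fasted and 70.1 to 113 in fed animals. The part of muscle RNA in the results for fat was not tested beyond the alternatives given below. In BAT the marker level went largely with fasting, so a fit with that level as a covariate cannot cleanly separate muscle from fasting. As these are bulk tissues, fewer cells of a type and less RNA per cell cannot be told apart.

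The main effect of fasting, which is the mean of the 3 within-tissue log2 differences, passed an adjusted p of 0.05 for 3803 of the 9168 genes tested (41.5%) by limma with Benjamini-Hochberg adjustment. Of these calls 1918 (20.9%) were higher and 1885 (20.6%) lower in fasted animals, so that 50.4% of calls were higher. When arrays were centred on their medians in place of the trimmed mean, 37.1% of calls were higher. Both the main effect and the same sign in 3 tissues were seen for 3199 genes (34.9%), 1629 of them higher (17.8%) and 1570 lower (17.1%) in fasted animals. The median main effect over all genes was 0.02 on the log2 scale.

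Fitted in each tissue by itself, fasting called 2549 genes in BAT (27.8%; 13.6% higher and 14.2% lower in fasted animals), 1841 in WAT (20.1%; 9.5% and 10.6%) and 1711 in liver (18.7%; 9.9% and 8.76%). All 3 separate fits called 434 genes in the same direction (4.73% of genes tested), with 207 rising (2.26%) and 227 falling (2.48%), and 28 genes (0.305%) were called in all 3 with directions that differed. These 434 are called the core genes here. The 207 rising core genes had median differences of 0.90 in BAT, 0.78 in WAT and 0.86 in liver, and the 227 falling ones had -0.74, -0.71 and -0.71. The largest of the 3 differences lay in liver for 84 rising and 84 falling genes, in BAT for 77 and 75, and in WAT for 46 and 68, so no tissue held most of the largest responses. At least 2-fold change in every tissue was reached by 26 rising and 26 falling core genes (0.284% each, 0.567% of genes tested in all). With 4 animals a group the core count was lower without any 1 animal, at 271 to 364, where each fit also had fewer arrays. It was 271 without fed animal 2, 273 without fed animal 5 and 271 without fasted animal 9. The rising core was 123 to 190 without any 1 animal, and 133 without fasted animal 8. Fitted with the level of muscle markers as a covariate, 103 genes were called in each tissue, all of them among the 434, and median centring left 113 rising genes. Arrays of each tissue had been scanned on 2 days (3 for WAT), and the core count was 649 with the day as a block. On the second day alone, with 2 fasted and 2 fed arrays of each tissue, it was 100. The first day held only 1 fasted WAT array, so the count for that day alone is not read as a result.

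**Figure D1:**
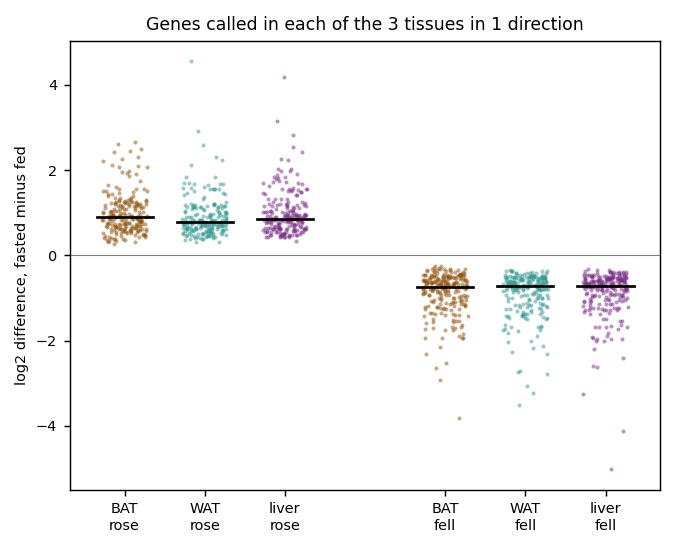
Each point is 1 of the 434 genes called in each tissue in 1 direction, plotted by its log2 difference, fasted minus fed, in BAT, WAT or liver; the 207 that rose are on the left, the 227 that fell on the right, and bars mark medians. The medians of the 3 tissues lie between 0.78 and 0.90 for rising genes and between -0.74 and -0.71 for falling genes.

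As a sign alone is a weak criterion, the margin matters: 817 of the 4875 genes with the same sign had a smallest difference under 0.05, beside 1592 of the 4293 genes with differing signs, whereas 454 genes with the same sign had at least 0.5 in every tissue. In 467 genes (5.09%) the 4 fasted and the 4 fed arrays did not overlap in any tissue and the sign was shared, with 210 higher (2.29%) and 257 lower (2.80%) in fasted animals. The genes described next were drawn from these by the size of the smallest of their 3 differences, so their sizes and their lack of overlap describe the choice. Their adjusted p-values come from limma fits over all genes. Where 3 values stand together without a tissue name, they are log2 differences, fasted minus fed, in BAT, WAT and liver in that order.

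The rule put a gene of insulin action at the head of the rises. Irs2 encodes an adaptor that couples the insulin receptor to PI3-kinase and is a known FoxO target. Its signal was 232, 254, 471 and 281 in fasted BAT, against 35, 48.4, 39.1 and 63.3 in fed BAT. In WAT it was 150, 174, 330 and 172 in fasted and 61.3, 68.5, 42.7 and 87.7 in fed animals, and in liver 156, 252, 256 and 211 in fasted and 58.8, 50.9, 50.3 and 47.0 in fed animals. Every fasted array stood above every fed array of its tissue, and fasted animal 9 was the highest in all 3 tissues. Irs2 rose by 2.66 ± 0.24 in BAT, 1.61 ± 0.27 in WAT and 2.02 ± 0.18 in liver (log2 ± SE, n = 4 a group), with a main effect of 2.10 ± 0.15 (limma, adjusted p = 8.03e-11).

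Pck1, the cytosolic phosphoenolpyruvate carboxykinase of gluconeogenesis in liver and of glyceroneogenesis in fat, was already bright in fed animals. It read 4091, 5357, 5661 and 5700 in fasted BAT and 1640, 1460, 1204 and 1174 in fed BAT. In WAT the readings were 4937, 5195, 5731 and 5688 in fasted and 927, 1891, 775 and 1231 in fed animals. In liver they were 6575, 5804, 6712 and 7743 in fasted animals, compared with 2155, 1992, 2663 and 2463 in fed animals. The groups did not overlap in any tissue, and Pck1 rose by 1.93, 2.24 and 1.53 in BAT, WAT and liver (main effect 1.90 ± 0.11, limma, adjusted p = 3.67e-12).

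Angptl4, a secreted inhibitor of lipoprotein lipase and a PPAR target, reached 4459, 3634, 3133 and 3581 in fasted BAT, with 612, 526, 920 and 609 in fed BAT. It reached 3002, 3476, 4279 and 3694 in fasted WAT, with 636, 990, 796 and 911 in fed WAT, and 1857, 2236, 2470 and 2764 in fasted liver, with 793, 976, 549 and 1109 in fed liver. The rise was 2.49 in BAT, 2.12 in WAT and 1.48 in liver, and its size differed between tissues (interaction F test in limma, adjusted p = 0.0266). Pdk4, the kinase that shuts off pyruvate dehydrogenase, showed the widest spread of sizes among the 12 leading rises. It read 1213, 2309, 2090 and 2077 in fasted WAT against 62.3, 71.1, 95.0 and 84.0 in fed WAT, a rise of 4.56 ± 0.21. In BAT, where fed animals already had 2518, 1728, 3514 and 2070, fasted animals had 5437, 6400, 5292 and 4867, a rise of 1.21 ± 0.18. Liver had 731, 1395, 1664 and 1712 in fasted animals, against 613, 467, 533 and 289 in fed animals, a rise of 1.51 ± 0.28. Every fasted array was above every fed array of its tissue, and the tissue difference was called (interaction adjusted p = 2.99e-07).

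Txnip, a thioredoxin-binding arrestin that limits glucose uptake, rose by 1.40 in BAT, 1.14 in WAT and 1.18 in liver (main effect 1.24 ± 0.10). It read 6477 to 7183 in fasted and 1806 to 3543 in fed BAT, 5293 to 6592 in fasted and 2201 to 3004 in fed WAT, and 1129 to 1546 in fasted and 516 to 695 in fed liver. Trib3, a pseudokinase induced by ATF4 that restrains Akt, rose by 1.66 in BAT, 1.18 in WAT and 2.55 in liver. Its liver signal was 154 to 269 in fasted and 23.6 to 58.9 in fed animals, and its WAT signal was 120 to 221 in fasted and 49.5 to 108 in fed animals, the narrowest gap of the 3 tissues.

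Among the 12 leading rises, 6 genes belonged to none of the pathway lists. Pnpla7, a lysophospholipase of the patatin-like family, read 909, 782, 966 and 717 in fasted BAT, against 218, 222, 198 and 155 in fed BAT. The readings in WAT were 931, 1193, 1739 and 1112 in fasted and 290, 417, 327 and 487 in fed animals, and in liver 1976, 2428, 1999 and 1698 in fasted and 699, 632, 801 and 642 in fed animals. No fasted array reached down to a fed one. Pnpla7 rose by 2.08 ± 0.14, 1.70 ± 0.21 and 1.54 ± 0.13 in BAT, WAT and liver (main effect 1.77 ± 0.11, limma, adjusted p = 4.85e-12), and the 3 sizes were not called different (interaction adjusted p = 0.248).

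Crebrf, a repressor of CREB3 factors, was dim and rose by nearly the same amount in the 3 tissues. Its signal was 256, 289, 294 and 224 in fasted and 80.2, 98.1, 97.6 and 110 in fed BAT. In WAT it was 269, 298, 308 and 197 in fasted and 103, 80.7, 109 and 88.5 in fed animals, and in liver 164, 204, 210 and 138 in fasted and 77.0, 36.2, 73.5 and 55.1 in fed animals. Fasted and fed arrays were apart in all 3 tissues. Crebrf rose by 1.45 ± 0.14 in BAT, 1.46 ± 0.17 in WAT and 1.57 ± 0.24 in liver (main effect 1.49 ± 0.12, limma, adjusted p = 4.11e-10; interaction adjusted p = 0.938), and all 3 of its probe sets had the same sign.

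Pla2g15, the lysosomal phospholipase A2, read 760 to 907 in fasted and 169 to 230 in fed BAT, 1240 to 1882 in fasted and 424 to 671 in fed WAT, and 271 to 401 in fasted and 66.5 to 119 in fed liver. It rose by 2.12, 1.37 and 1.98. Omd, the matrix proteoglycan osteomodulin, best known from bone, rose by 1.24, 1.26 and 1.32 (main effect 1.27 ± 0.12, limma, adjusted p = 1.33e-08). Its liver signal was 414, 466, 451 and 297 in fasted animals, compared with 168, 162, 151 and 159 in fed animals. Ccdc28a, a coiled-coil protein, rose by 1.22, 1.46 and 1.71, with 130 to 208 in fasted and 63.3 to 85.2 in fed BAT. Fmo2, a flavin-containing monooxygenase, rose by 2.21 in BAT, 1.83 in WAT and 1.18 in liver, where it was dim at 35.5 to 51.5 in fasted and 15.2 to 19.1 in fed animals.

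**Figure D2:**
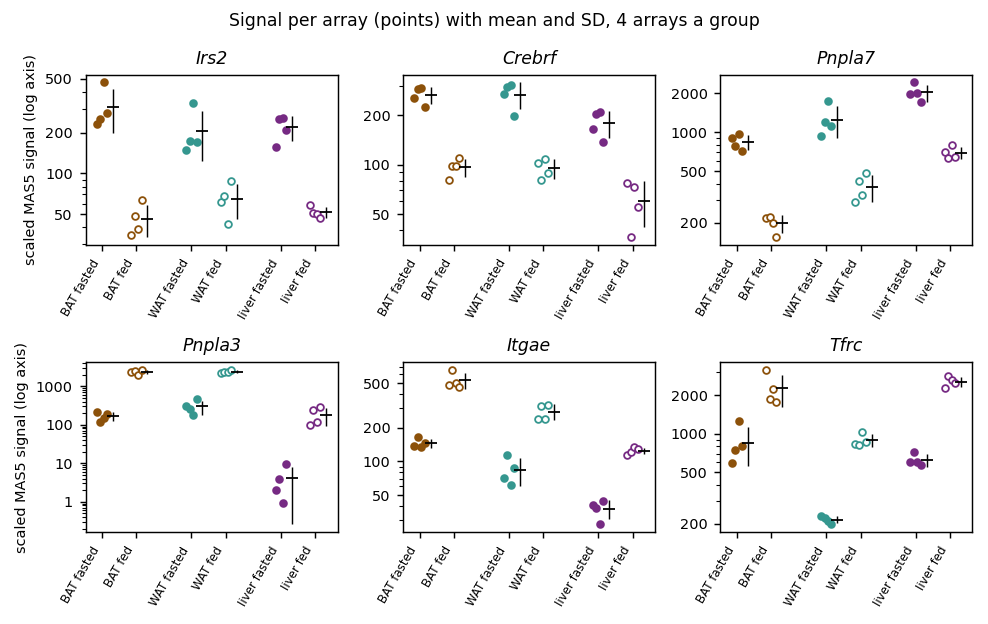
Scaled MAS5 signal on a log axis for 6 genes, filled points for the 4 fasted and open points for the 4 fed arrays of each tissue, with mean and SD. Irs2, Crebrf and Pnpla7 stand higher and Pnpla3, Itgae and Tfrc lower in fasted animals, without overlap in any tissue.

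A deep shared fall was that of Pnpla3, a lipid droplet protein with lipase and acyltransferase activity and an SREBP-1c target. It read 214, 121, 147 and 191 in fasted BAT, against 2284, 2530, 1935 and 2597 in fed BAT. WAT had 314, 252, 182 and 462 in fasted and 2190, 2355, 2336 and 2708 in fed animals. In liver, where the gene was dimmer, fasted animals had 2.05, 3.83, 0.935 and 9.57, near the floor of the array, and fed animals had 98.6, 235, 117 and 287. Pnpla3 fell in each tissue, with -3.81 ± 0.17 in BAT, -3.06 ± 0.23 in WAT and -5.02 ± 0.46 in liver (main effect -3.96 ± 0.21, limma, adjusted p = 3.98e-13). Because the fasted liver arrays were at floor level, the pseudocount of 1.9 sets the liver difference, which was -3.22 with a pseudocount of 16. The main effect was then -3.30 (adjusted p = 4.96e-14), and over BAT and WAT alone it was -3.43 (adjusted p = 1.26e-10).

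Mid1ip1, a helper of acetyl-CoA carboxylase assembly, fell with a small error. Its signal was 667, 549, 520 and 419 in fasted BAT and 2037, 1700, 1812 and 1564 in fed BAT. In WAT it was 423, 335, 406 and 357 in fasted and 1676, 1957, 1928 and 2003 in fed animals, and in liver 602, 397, 421 and 383 in fasted and 3401, 2690, 2501 and 2522 in fed animals. No arrays overlapped, and the differences of -1.73, -2.31 and -2.63 gave a main effect of -2.22 ± 0.09 (limma, adjusted p = 3.68e-15). Elovl6, the elongase that makes stearate from palmitate, fell in each tissue (-1.88 in BAT, -1.77 in WAT and -4.11 in liver), by amounts that differed (interaction adjusted p = 1.15e-06). It had 68.5, 70.0, 89.4 and 118 in fasted liver against 896, 2097, 1376 and 1872 in fed liver, while BAT still held 1234 to 1467 in fasted animals, with 4792 to 5555 in fed animals.

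Slc2a5, the fructose transporter, read 20.7, 19.9, 10.1 and 22.4 in fasted BAT and 114, 153, 103 and 114 in fed BAT. It read 5.44 to 24.9 in fasted and 72.1 to 169 in fed WAT, and 16.8 to 41.5 in fasted and 74.1 to 171 in fed liver. The gene fell in BAT, WAT and liver (-2.64, -2.72 and -1.93; main effect -2.43 ± 0.23, limma, adjusted p = 6.47e-09).

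Of the falling genes in no list, Nabp1, a single-stranded DNA-binding protein of DNA repair, fell (-2.92 in BAT, -2.02 in WAT and -1.55 in liver). It read 78.3, 101, 150 and 174 in fasted and 868, 1051, 792 and 1010 in fed BAT. Tfrc, the transferrin receptor that takes up iron, read 593, 744, 1249 and 804 in fasted BAT and 3160, 1862, 2235 and 1778 in fed BAT. In WAT it was 229, 223, 211 and 197 in fasted and 837, 818, 1039 and 858 in fed animals, and in liver 603, 727, 603 and 569 in fasted and 2256, 2811, 2607 and 2501 in fed animals. Fasted arrays lay below all fed arrays throughout, with differences of -1.43 ± 0.22, -2.03 ± 0.11 and -2.02 ± 0.11 (main effect -1.83 ± 0.11, limma, adjusted p = 3.25e-12).

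Itgae, the integrin alpha E chain known from mucosal T cells that bind E-cadherin, fell by an almost equal amount everywhere. It read 136, 164, 135 and 147 in fasted and 485, 660, 506 and 462 in fed BAT, 71.2, 114, 61.8 and 86.7 in fasted and 240, 315, 239 and 319 in fed WAT, and 41.1, 38.4, 27.4 and 44.1 in fasted and 115, 121, 134 and 128 in fed liver. The differences of -1.84, -1.74 and -1.69 (main effect -1.75 ± 0.10, limma, adjusted p = 3.25e-12) were not called different between tissues (interaction adjusted p = 0.908). The 6 lymphocyte markers summed to 86.6 to 117 in fasted and 101 to 153 in fed BAT, to 145 to 1435 in fasted and 147 to 2781 in fed WAT, and to 86.3 to 113 in fasted and 105 to 128 in fed liver. Those sums overlapped in every tissue, and the part of lymphocytes in the fall of Itgae was not tested.

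Ppil3, a peptidyl-prolyl isomerase of the cyclophilin family, fell (-1.58, -1.42 and -1.69), and read 85.4 to 97.8 in fasted against 256 to 350 in fed liver. Prlr, the prolactin receptor, fell (-1.71 in BAT, -1.67 in WAT and -2.0 ± 0.51 in liver). Its liver signal was spread at 121, 205, 57.4 and 553 in fasted animals, against 582, 775, 747 and 625 in fed animals, so that the groups in liver were close to touching. Only 2 of the 3 Prlr probe sets had a shared sign.

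**Figure D3:**
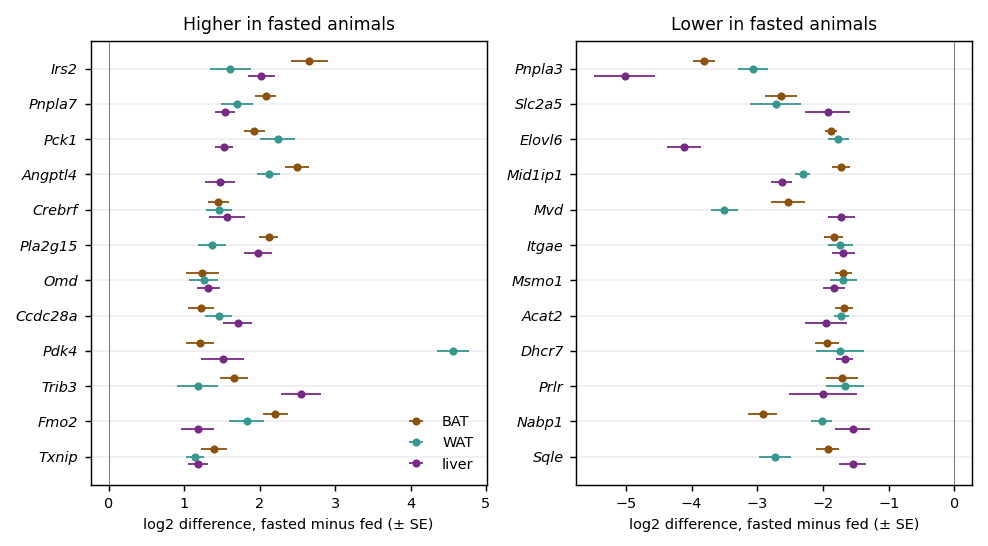
Log2 differences, fasted minus fed, with SE from the limma fit of each tissue (n = 4 animals a group), for the 12 rising genes on the left and the 12 falling genes on the right with the largest smallest-of-3 differences. Crebrf, Omd, Itgae and Msmo1 have nearly equal values in the 3 tissues, while Pdk4 stands out in WAT at 4.56 and Elovl6 in liver at -4.11.

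Genes were then read by pathway, as counts of members that passed the main effect with the same sign in 3 tissues, and of members in the core. Over all genes tested these shares were 17.8% rising and 17.1% falling for the first count, and 2.26% and 2.48% for the second. The lists were drawn up with earlier results of these data known, so their counts are a description. A list median given without a tissue is that of the main effect, and it can hide a difference between tissues.

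Cholesterol synthesis had the largest share of core genes among the 23 pathway lists. Of 17 genes tested, 14 fell and none rose by the main effect with a shared sign, and 13 were in the falling core, with a list median of -1.52. The core members ran through the pathway: Acat2, which joins acetyl-CoA units, Mvk, Pmvk and Mvd of the mevalonate steps, Idi1 and Fdps of the prenyl steps, Sqle and Lss, which form and close squalene epoxide, and the later enzymes Cyp51, Msmo1, Nsdhl, Hsd17b7 and Dhcr7. Msmo1, a methylsterol monooxygenase, read 101, 106, 101 and 104 in fasted BAT, against 362, 284, 388 and 316 in fed BAT. In WAT it had 216, 156, 252 and 157 in fasted and 680, 513, 857 and 492 in fed animals, and in liver 557, 561, 716 and 665 in fasted and 1969, 2678, 1647 and 2748 in fed animals. The arrays did not overlap, and the differences were -1.69, -1.69 and -1.83 (limma, adjusted p = 1.80e-11 for the main effect).

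Mvd, the mevalonate diphosphate decarboxylase, fell (-2.53 in BAT, -3.5 in WAT and -1.72 in liver), and in WAT read 10.6, 21.1, 18.5 and 12.5 in fasted and 182, 181, 228 and 175 in fed animals. Falls in each tissue were also measured for Sqle (-1.93, -2.73 and -1.55), Nsdhl (-1.74, -2.27 and -0.90), Acat2 (-1.68, -1.72 and -1.96) and Dhcr7 (-1.94, -1.74 and -1.67). Outside the core, Sc5d fell by the main effect but had -0.21 in liver beside -1.65 in BAT and -1.78 in WAT. Fdft1, the squalene synthase, had 0.70 in BAT and -1.02 and -0.98 in WAT and liver. Among 7 sterol sensing and uptake genes, Insig1, which holds SREBP in the endoplasmic reticulum and is an SREBP target, fell (-0.95, -0.73 and -1.05). Mylip, the ligase that degrades the LDL receptor and an LXR target, rose by 1.61 in BAT, 1.03 in WAT and 1.11 in liver, with 470 to 551 in fasted and 150 to 185 in fed BAT. Srebf2 and Stard4 fell by the main effect (list median 0.05), and the Srebf2 call was lost with the mean of its probe sets (-0.19, adjusted p = 0.315). The Stard4 call was lost without animal 1 or 10 (-0.31 and -0.28).

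In fatty acid synthesis 15 of 18 genes fell and none rose, with 8 in the falling core and a median of -1.14. The list median was -0.40 in BAT, -0.55 in WAT and -1.48 in liver. Besides Pnpla3, Mid1ip1 and Elovl6, the core held Acly, which makes cytosolic acetyl-CoA (-0.47 in BAT, -0.59 in WAT and -2.41 in liver), its citrate carrier Slc25a1 (-1.26, -1.25 and -0.89), the acetate-activating Acss2, the elongase Elovl5 and the desaturase Fads1 (-1.11, -1.45 and -0.90). The best-known members were outside the core. Fasn, the fatty acid synthase, differed by -0.10 in BAT and -0.19 in WAT but by -3.67 in liver, and the transcription factor Srebf1 by -0.11, -0.37 and -3.41. Mlxipl, the glucose-responsive factor ChREBP, had the opposite layout with -1.90 in BAT, -2.55 in WAT and -0.30 in liver.

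In the list of the pentose phosphate pathway and NADPH supply 7 of 8 genes fell, with no rise (median -0.69). Pgd, which forms NADPH, fell (-1.02, -0.90 and -1.27), Rpia, the ribose 5-phosphate isomerase (-1.74, -1.88 and -0.66), and malic enzyme Me1 (-0.68, -0.83 and -1.67). In triglyceride synthesis 3 of 10 genes rose and 3 fell (median -0.25, with -0.42 in BAT, -0.49 in WAT and 0.22 in liver). Dgat2, which adds the last acyl chain, fell in each tissue (-0.32, -0.80 and -0.32), the acyltransferases Gpam and Agpat2 fell by the main effect (-2.19 and -0.80), and the phosphatidate phosphatases Lpin1 and Lpin3 rose by the main effect, by 0.62 and 0.29. The Lpin3 call was lost without animal 1, 4, 6 or 8 (0.26 to 0.28).

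Of 11 glycogen genes 4 fell and 1 rose (median -0.14), and the falling core held Ppp1r3b, a subunit that brings protein phosphatase 1 to glycogen, the branching enzyme Gbe1 and the liver phosphorylase Pygl. Ppp1r3b read 85.3, 81.1, 110 and 87.2 in fasted WAT against 760, 844, 941 and 886 in fed WAT, and fell (-1.25 in BAT, -3.22 in WAT and -1.23 in liver). Pygl fell (-0.46, -0.76 and -1.34). Of 14 glycolysis and glucose uptake genes 6 fell, 1 rose and none was in the core (median -0.14). Eno1 and Pgk1 fell by the main effect (-0.39 and -0.45), and the glucose transporter Slc2a1 rose by 0.61. Of the 3 Pgk1 probe sets only 2 had a shared sign.

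Of 16 insulin signalling and FoxO target genes 11 rose and 2 fell, with 5 in the rising core and a median of 0.74. Foxo3, a FoxO factor itself, rose by 1.29, 0.67 and 0.78, and Ccng2, an atypical cyclin and FoxO target, by 0.66, 0.82 and 1.52. Foxo1, Insr and the translation repressor Eif4ebp1 rose by the main effect, by 0.48, 0.88 and 0.59. The 2 falls were the kinases Akt1 (-0.38) and Akt2 (-0.42). Klf15, a Kruppel-like factor of fasting metabolism, had a main effect of 1.63 but rose unevenly, with 3.43 in BAT, 0.90 in WAT and 0.57 in liver.

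In the fatty acid oxidation list 6 of 21 genes rose and 1 fell (median 0.17), and the rising core of 4 was Pdk4, Angptl4, the mitochondrial entry enzyme Cpt1a and the peroxisomal bifunctional enzyme Ehhadh. Cpt1a, which feeds long-chain acyl groups into mitochondria, read 76.7, 113, 89.6 and 97.0 in fasted BAT, against 53.4, 47.3, 44.3 and 39.9 in fed BAT. It had 286, 228, 263 and 213 in fasted and 130, 98.8, 122 and 78.8 in fed WAT, and 4431, 4447, 6472 and 6150 in fasted and 855, 690, 438 and 467 in fed liver. Groups were apart in each tissue, with rises of 0.99, 1.21 and 3.16. Ehhadh rose by 1.96, 2.30 and 1.01. The beta-oxidation enzymes Hadha and Hadhb had 0.54 and 0.65 in liver but differences between -0.03 and 0.13 in fat, and the lipid droplet protein Plin2 fell by the main effect (-0.54).

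Of 13 glucocorticoid response genes 10 rose and none fell (median 0.78). The list median was 1.19 in BAT and 0.91 in WAT, but 0.28 in liver. The core members were Fkbp5, an immunophilin that damps the glucocorticoid receptor, and the metal-binding Mt2A. Fkbp5 read 618, 578, 749 and 616 in fasted BAT, against 85.3, 130, 121 and 127 in fed BAT, and rose by 2.46 in BAT, 1.51 in WAT and 0.94 in liver. In liver it had 152, 251, 246 and 122 in fasted and 77.4, 104, 103 and 97.8 in fed animals, which did not overlap. Mt2A rose by 1.24, 1.13 and 2.82, and reached 6944 to 8056 in fasted liver against 764 to 1383 in fed liver. Ddit4, a brake on mTORC1, was high in fat with 1.90 in BAT and 1.61 in WAT, beside 0.04 in liver. Errfi1 and Cebpd likewise rose by the main effect but had 0.07 and 0.02 in liver. Sgk1 had 0.84 in BAT and 0.85 in WAT but -0.89 in liver.

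In the clock list 6 of 17 genes rose and 1 fell (median 0.16, with 0.46 in BAT, 0.26 in WAT and -0.07 in liver). Per3, a period repressor, rose by 2.08 in BAT, 0.91 in WAT and 1.71 in liver, and Nr1d2, the repressor REV-ERB beta, by 1.07, 0.64 and 1.67. Bhlhe40, the repressor DEC1, fell (-1.04, -2.78 and -1.49), and read 42.7 to 63.3 in fasted and 269 to 471 in fed WAT. Per1 rose by the main effect with 1.81, 1.46 and 1.28, and its liver difference was not called by itself (limma, adjusted p = 0.163). Per2 had 1.29 in BAT and 0.81 in WAT but -1.20 in liver. All tissues were taken at 1 hour of the day, so clock phase and level cannot be told apart.

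Of 16 autophagy and ubiquitin ligase genes 8 rose and 1 fell (median 0.32). The core rises were Gabarapl1, an ATG8 protein of the autophagosome (1.46, 0.64 and 1.84), Ulk1, the kinase that starts autophagy (1.15, 0.76 and 0.92), and Bnip3, a mitophagy receptor (1.21, 0.98 and 1.26). Bnip3 read 2846 to 3948 in fasted and 1214 to 1814 in fed BAT. Among 16 genes of the integrated stress response 4 rose and 3 fell (median -0.22): Trib3 and the small stress protein Nupr1 (1.08, 1.21 and 1.46) rose in each tissue, whereas the alanyl-tRNA synthetase Aars1 fell (-0.67, -0.41 and -0.61) and Asns, the asparagine synthetase, fell by the main effect (-0.61).

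The secretory pathway split. Of 19 endoplasmic reticulum genes 9 fell and 4 rose (median -0.16). Xbp1, a transcription factor of the unfolded protein response, rose by 1.39, 0.75 and 1.04, and Herpud1, a component of the degradation complex, by 1.21, 0.84 and 1.02. Hspa5, the chief chaperone BiP, fell (-0.57, -0.37 and -0.74), and Dnajb11, Calr and Hyou1 fell by the main effect (-0.52, -0.42 and -1.28). Xbp1 was at 1658 to 2284 in fasted and 660 to 906 in fed BAT.

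Cytosolic heat shock proteins and co-chaperones fell: 10 of 14 did so with a shared sign, none rose, and 5 were in the core (median -0.53). Stip1, which hands clients between HSP70 and HSP90, read 712, 679, 580 and 593 in fasted BAT, against 1282, 1090, 1684 and 1122 in fed BAT. In WAT it had 406, 405, 305 and 349 in fasted and 639, 633, 906 and 805 in fed animals, and in liver 519, 720, 461 and 525 in fasted and 1155, 863, 1359 and 931 in fed animals. Fasted arrays were the lower in each tissue and Stip1 fell (-1.0, -1.02 and -0.95; main effect -0.99 ± 0.10). Hsph1, an HSP110 exchange factor, fell (-1.0, -1.23 and -0.91), the HSP90 co-chaperones Chordc1 (-0.92, -0.94 and -0.70) and Fkbp4 (-0.72, -0.61 and -1.27), and Hspa4, another HSP110 protein (-0.72, -0.65 and -0.70). Dnaja1 and Dnajb1, the HSP40 partners, had -0.92 and -1.10 in BAT but 0.01 and 0.06 in liver.

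In ribosome biogenesis 11 of 21 fell and 3 rose (median -0.27), and Nop56, a core protein of small nucleolar particles, fell in each tissue (-0.67, -0.58 and -0.82). Of 17 translation factors 10 fell and 1 rose (median -0.27). The cap-binding Eif4e fell (-0.68, -0.68 and -0.70), its helicase partner Eif4a1 (-0.68, -0.85 and -0.51), and Eef1e1, a scaffold of tRNA synthetases (-1.13, -1.01 and -0.53). Eif4e read 807 to 921 in fasted and 1227 to 1491 in fed BAT, but 1 of its 3 probe sets did not share the sign, and with their mean its call was lost (-0.29, adjusted p = 0.111). Of 9 cytosolic ribosomal proteins 2 fell, Rpl4 among them (-0.25), and none rose (median -0.07).

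The proteasome gave 17 of 23 genes falling and none rising, which is the largest such share among the lists of over 20 genes, and a median of -0.27. The core held Psmb2 and Psmb3 of the catalytic ring (-0.53, -0.59 and -0.43, and -0.33, -0.42 and -0.38) and the deubiquitinase Psmd14 (-0.66, -0.68 and -0.82). Psmb2 read 1410 to 1763 in fasted and 2077 to 2401 in fed BAT, 878 to 989 in fasted and 1232 to 1590 in fed WAT, and 1211 to 1537 in fasted and 1582 to 1921 in fed liver. In the tricarboxylic acid cycle list 6 of 16 genes fell and 1 rose (median -0.14). Pdhb, the E1 beta subunit of pyruvate dehydrogenase, fell in each tissue (-0.61, -0.75 and -0.71). Of 17 genes of branched-chain amino acid breakdown 3 rose and 2 fell (median 0.13), among them Pccb, a propionyl-CoA carboxylase subunit, which rose by 0.35, and Dld, which fell by 0.38.

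Of 15 cell cycle and DNA replication genes 3 rose and 6 fell (median -0.09). The inhibitor Cdkn1b, or p27, rose by 1.34 in BAT, 0.90 in WAT and 0.66 in liver, and cyclin D2, Ccnd2, fell (-0.75, -0.73 and -0.71). Cdkn1b had 948 to 1194 in fasted and 381 to 530 in fed BAT. Of 14 immediate early genes 5 rose, none fell and none was in the core (median 0.44), with Myc at 1.80, 0.84 and 0.44.

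**Figure D4:**
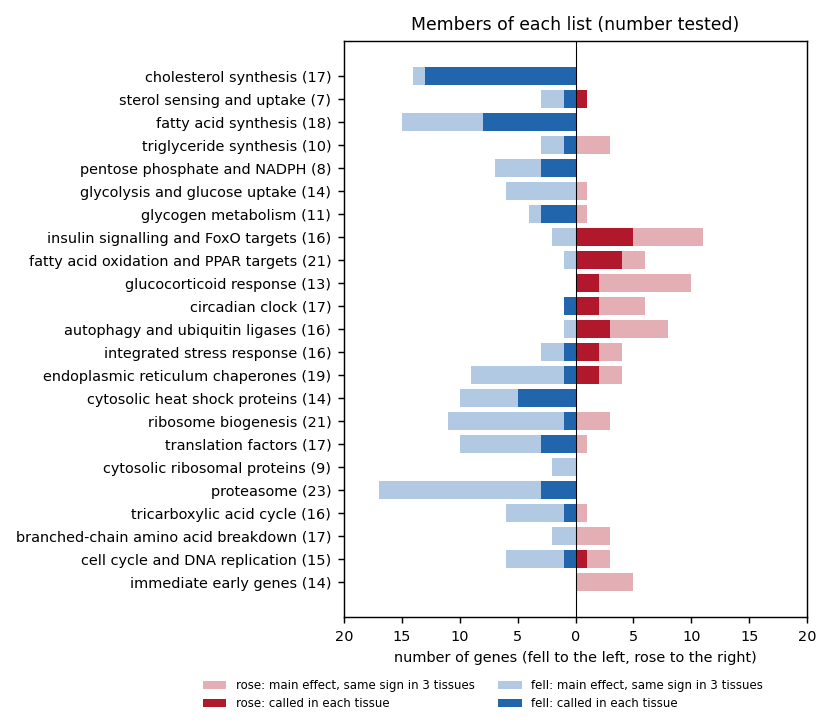
Numbers of genes of each list that fell (blue, to the left) or rose (red, to the right); pale bars count the main effect with the same sign in 3 tissues and dark bars the genes called in each tissue, with the number tested after each name. Cholesterol synthesis has 13 of 17 genes in the falling core, and insulin signalling and FoxO targets have 5 of 16 in the rising core.

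Markers of other cell types were read the same way. Of 12 macrophage markers tested 8 rose and none fell (median 0.46). The scavenger receptors Cd163 (1.17, 1.19 and 0.72) and Cd68 (0.93, 0.47 and 0.66) and the complement component C1qb (0.76, 0.71 and 0.49) rose in each tissue, while Adgre1, Lyz2, Aif1 and Tyrobp were not called. The summed macrophage signal was 4089 to 5982 in fasted and 2992 to 4589 in fed BAT, 8680 to 11985 in fasted and 6312 to 7879 in fed WAT, and 7008 to 8354 in fasted and 5978 to 6629 in fed liver. Of 7 endothelial markers 3 rose and none fell with a shared sign (Tek, Vwf and Tie1), and of 2 red blood cell markers 1 fell (Alas2). The Tie1 call was lost without animal 10 (0.32), and the Alas2 call without animal 2, 4, 5, 6, 8 or 9 (-0.58 to -0.40). Of 3 adipocyte, 2 brown adipocyte, 3 hepatocyte markers and 1 lymphocyte marker bright enough in all tissues none passed with a shared sign. On the arrays of fat, the mean log2 level of all 5 brown adipocyte markers was 8.49 ± 0.39 in fasted and 9.55 ± 0.11 in fed BAT (SD, n = 4), without overlap (8.10 to 9.04 against 9.41 to 9.69). Their summed signal did overlap, with 18967 to 20955 in fasted and 19319 to 24357 in fed BAT. The 2 members tested were unlike in BAT, with -0.01 for Cidea and -0.68 for Ppargc1a. The mean log2 level of all 7 adipocyte markers was 11.02 ± 0.15 in fasted and 11.38 ± 0.16 in fed BAT, and 11.51 ± 0.01 in fasted and 11.76 ± 0.17 in fed WAT, with ranges that overlapped slightly. The part of either marker list in the results for fat was not tested. Of the muscle markers only Eno3 was bright enough in all tissues, and it had 4.40 in BAT, 2.97 in WAT and 0.22 in liver.

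Most of the core lay outside the lists: 363 of the 434 genes belonged to none of them. The genes of this paragraph were chosen after their values were seen. Rising genes included the kinase Pim3 (2.09, 2.58 and 1.16), Rasgef1b, a Ras family exchange factor (1.87, 2.93 and 1.17), the aromatic amino acid transporter Slc16a10 (1.26, 1.67 and 1.55), the ubiquitin ligase Cblb (2.27, 1.12 and 1.04), the ligase adaptor Klhl24 (1.02, 1.19 and 2.24) and the Polycomb protein Cbx7 (1.28, 1.06 and 1.85). Also rising were Flcn, the folliculin that controls mTORC1 at the lysosome (0.88, 1.02 and 1.33), Dram2, a lysosomal membrane protein of autophagy (1.30, 0.89 and 0.85), and Zfyve1, a marker of the sites where autophagosomes form (1.56, 1.44 and 0.95). The pocket protein Rbl2, which holds cells out of the cycle, rose by 0.99, 0.79 and 0.94.

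Among falls, likewise chosen after their values were seen, were both late enzymes of pyrimidine synthesis, Dhodh (-1.19, -0.90 and -0.89) and Umps (-1.23, -0.93 and -0.90). Angptl8, an insulin-induced secreted protein, fell (-0.99 in BAT, -2.17 in WAT and -3.26 in liver), the opposite direction to Angptl4. Ergic1, a protein cycling between endoplasmic reticulum and Golgi, fell evenly, with -1.19, -1.17 and -1.16 (interaction adjusted p = 0.999). Slc25a44, the mitochondrial carrier of branched-chain amino acids, fell (-1.42, -1.42 and -1.13), and Pak1ip1, a ribosome assembly factor (-1.57, -1.43 and -1.27).

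Sharing a direction did not mean sharing a size. Over all genes tested, the fasting effect differed between tissues for 1441 (15.7%) by the interaction F test in limma over 24 arrays. Genes with a main effect, a shared sign and such a difference made up 5.43% of genes tested. Within the core the difference was called for 100 genes (1.09% of genes tested), 47 of the 207 rising (22.7%; 0.513% of genes tested) and 53 of the 227 falling ones (23.3%; 0.578%), so most core genes gave no call of a difference, which does not show that their sizes were equal.

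The main effect also called 604 genes (6.59%) whose sign was not shared, and the largest of these, 2 in each direction, are given here. Hrc and Tnnc1, calcium-handling and contractile proteins of striated muscle, had main effects of 2.12 ± 0.49 and 1.77 ± 0.47. Hrc read 855, 895, 399 and 384 in fasted and 16.0, 12.1, 13.3 and 248 in fed BAT, and 13.7, 113, 13.0 and 310 in fasted and 8.32, 13.0, 14.4 and 5.09 in fed WAT. Within fed BAT and fasted WAT its high arrays were those with a high muscle marker sum, namely fed animal 5 in BAT and fasted animals 8 and 10 in WAT. With the same covariate Hrc was at 0.42 (adjusted p = 0.219) and Tnnc1 at 0.25 (adjusted p = 0.583). Spc24, a kinetochore protein, fell in liver (-3.20), where it read 17.3 to 24.4 in fasted and 163 to 251 in fed animals, and had 0.04 in BAT and -0.48 in WAT. Fed BAT animal 5 read 9.59 for Spc24, below the other fed arrays at 73.2 to 95.2. Cachd1, a calcium channel-related membrane protein, fell in BAT (-1.60) and WAT (-2.13) and had 0.19 in liver.

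Promoters were searched for short letter patterns, chosen with the gene lists known, in 300 bases around each start site (250 before and 50 after) from RefSeq, build GRCr8. Of the 434 core genes 387 had an entry, 183 rising and 204 falling. The FoxO letters TGTTTAC, on either strand, stood in 17 of the 183 rising promoters (9.29%) and in 4 of the 204 falling ones (1.96%), with 2.27% of the 7740 promoters of genes tested and 3.76% of all 27456. CCAAT, the letters bound by NF-Y, stood in 66 rising (36.1%) and 105 falling promoters (51.5%), and in 8 of 11 core cholesterol genes, compared with 38.3% of promoters of genes tested and 37.7% of all. The E-box CACGTG stood in 12.6% of rising and 16.7% of falling promoters, with 10.1% of promoters of genes tested and 6.65% of all. The heat shock letters GAANNTTC occurred in 8.20% of rising and 8.33% of falling promoters, in 3 of 5 core heat shock genes, and in 5.79% of promoters of genes tested and 8.34% of all. For the sterol letters TCACNCCAC the shares were 1.64% rising, 0.49% falling, 1.06% tested and 1.13% of all, and 0 of the 11 core cholesterol promoters held them or the E-box. For the cAMP letters TGACGTCA the shares were 3.28% rising, 3.92% falling, 3.41% tested and 1.91% of all. Each pattern was searched by itself, so matches of different patterns may overlap, and no test was run on these shares.

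Among the 17 rising genes with FoxO letters were the leading rises Pnpla7 and Ccdc28a, along with Hbp1, Ypel3, Wdr45 and Tbc1d17. The promoters of Pnpla7 and Ccdc28a, and those of the falling sterol genes Msmo1 and Mvd with CCAAT, are shown because they carry patterns named above. Capitals mark FoxO, CCAAT and E-box letters on either strand, and each line is the strand of the gene, 5′ to 3′. Pnpla7 lies at chr3:28180501-28180800 (plus strand), Ccdc28a at chr1:14692440-14692739 (minus), Msmo1 at chr16:29746863-29747162 (plus) and Mvd at chr19:67414925-67415224 (minus).
Pnpla7: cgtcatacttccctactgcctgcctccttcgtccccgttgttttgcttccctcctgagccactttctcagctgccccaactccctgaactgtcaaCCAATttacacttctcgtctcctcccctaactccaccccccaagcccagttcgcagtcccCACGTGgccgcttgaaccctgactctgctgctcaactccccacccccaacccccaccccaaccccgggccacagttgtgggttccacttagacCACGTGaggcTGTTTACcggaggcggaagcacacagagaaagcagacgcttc
Ccdc28a: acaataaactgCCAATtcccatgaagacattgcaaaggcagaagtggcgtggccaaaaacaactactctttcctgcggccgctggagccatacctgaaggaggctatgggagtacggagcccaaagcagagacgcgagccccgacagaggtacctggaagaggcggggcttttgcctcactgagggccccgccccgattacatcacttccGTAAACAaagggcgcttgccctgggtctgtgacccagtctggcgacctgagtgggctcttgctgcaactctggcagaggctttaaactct
Msmo1: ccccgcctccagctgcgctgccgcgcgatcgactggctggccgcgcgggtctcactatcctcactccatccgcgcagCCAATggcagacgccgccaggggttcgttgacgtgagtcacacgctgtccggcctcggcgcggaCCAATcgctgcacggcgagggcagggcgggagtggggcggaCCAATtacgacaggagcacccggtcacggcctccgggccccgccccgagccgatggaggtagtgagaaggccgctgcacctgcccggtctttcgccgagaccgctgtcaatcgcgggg
Mvd: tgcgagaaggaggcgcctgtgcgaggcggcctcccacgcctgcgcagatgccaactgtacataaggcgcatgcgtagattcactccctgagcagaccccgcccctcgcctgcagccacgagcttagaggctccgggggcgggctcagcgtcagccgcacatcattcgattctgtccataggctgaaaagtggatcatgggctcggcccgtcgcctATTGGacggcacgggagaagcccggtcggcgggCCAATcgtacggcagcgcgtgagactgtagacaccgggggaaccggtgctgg
In these windows Pnpla7 held FoxO letters, 2 E-boxes and 1 CCAAT, Ccdc28a held FoxO letters on the opposite strand and 1 CCAAT, and Msmo1 held 3 and Mvd 2 CCAAT. A match is a run of letters and was not tested as a binding site.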

How the data were processed

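The authors deposited probe set intensities on a linear scale, made with MAS5 per the submitters' processing notes, with the MAS5 version not given in the sources used here; per the labels' protocols, cRNA was prepared from 2 µg of total RNA. Each of the 24 arrays was multiplied so that its 2% trimmed mean became 129. From the scaled signals log2(signal + 1.9) was then taken, which understates changes of dim genes. The pseudocount is the 10th percentile of all scaled signals. After 57 control probe sets were removed, 20826 of 31042 carried 1 gene symbol, 436 several and 9780 none. Symbols were updated by gene identifier for 20758 probe sets and by accession for 2, and 66 were kept. The brightest probe set on average stood for each of the 14217 named genes (4525 genes had several). A gene was tested if its mean in each of the 3 tissues exceeded the 40th percentile over probe sets.

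The main effect was fitted in limma 3.58.1 (R 4.3.3) with 6 group means, a mean-variance trend and the animal number as a random block (estimated correlation 0.065), two-sided, with Benjamini-Hochberg adjustment over 9168 genes; each tissue was also fitted by itself. Equal numbers are taken to mark 1 animal in 3 tissues, which the labels do not state. Deviations from the group means correlated with a median r of 0.106 (0.015 to 0.215) over 24 pairs of equal number and -0.038 (-0.219 to 0.15) over 72 pairs of other numbers. The fit was tested on simulated data. Precision is limited by 4 arrays a group.

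The naming rule took the 12 rising and 12 falling genes with the largest smallest-of-3 difference among those called by the main effect, with 1 sign and no overlap of arrays in any tissue, the first 6 each way in no list, up to 3 members of each list by p, and 2 each way with the largest main effect among those of differing sign. Some genes so chosen are not described, and other genes in the text are list members or were chosen after their values were seen. Members, lists and tests were chosen with earlier results of these data known. Alternatives were the scaling, pseudocount, filter, probe set choice, block, model, animals, tissues, scan day and muscle level. Muscle-rich arrays (2 fasted WAT, 1 fed BAT) were also left out, which was chosen after seeing the data.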

Additional observations from a re-analysis of the deposited data

Results flagged for a closer look

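Among the genes leading the shared response or its exceptions, 180 groups of 4 arrays (30 genes) were examined for an array far from the other 3, measured as its gap to the nearest array over the range of the group. Chance alone exceeds the critical ratio used in about 1 in 20 groups, and 8 did so here. Fed BAT animal 5 stood apart for Hrc (0.913), Tnnc1 (0.855) and Spc24 (0.88), and it was also the fed BAT array with the highest muscle marker level. Fasted animal 9 was high for Omd in WAT (0.967) and low for Slc2a5 in BAT (0.843). Fasted animal 6 was low for Pdk4 in WAT (0.835), fasted animal 8 low for Elovl6 in BAT (0.87) and fed animal 4 high for Mvd in WAT (0.849).

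The size of the fasting effect differed between the 3 tissues for 13 of these 30 genes by the interaction F test in limma, adjusted over all genes. Over all 9168 genes tested the share was 15.7%. The genes were chosen for large effects or, with Hrc, Tnnc1, Spc24 and Cachd1, for signs that differed, so the count describes the choice. The adjusted p was 2.99e-07 for Pdk4, 0.0266 for Angptl4, 0.0312 for Trib3 and 0.0257 for Fmo2 among the rises. Among the falls it was 1.15e-06 for Elovl6, 0.0015 for Mvd, 0.00593 for Mid1ip1, 0.0113 for Pnpla3 (at floor level in fasted liver), 0.0126 for Nabp1 and 0.0212 for Sqle. For genes without a shared sign it was 2.01e-06 for Cachd1, 0.000405 for Spc24 and 0.0212 for Hrc.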

How the results depend on the processing

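Over 26 alternatives the main-effect count ran from 2615 to 4464 (3803 as reported), and of the 88 genes that the naming rule chose, 79 kept direction and side of the threshold in each alternative run for them (80 had a value with the 60th percentile filter and 87 with the mean of probe sets). This concerns the main effect, not the call in each tissue. The rule chose most of these genes by size, lack of overlap or p on the same arrays, so kept calls partly describe the choice. Klf6, Rps3, Bckdk, Hrc, Tnnc1, Spc24, Srebf2, Eif4e and Ier3 lost the call in at least 1, and none of the 88 reversed. Of 77 other genes in the text 73 were called, and 57 of these kept direction and call in each alternative run for them (66 of the 77 had a value with the 60th percentile filter and 76 with the mean of probe sets). The call was lost in at least 1 for Alas2, Dnajb1, Eno3, Fasn, Fdft1, Foxo1, Hadha, Hadhb, Lpin3, Per1, Per2, Slc2a1, Srebf1, Stard4, Tie1 and Vwf. The sign turned for Hadhb without liver (-0.03, against 0.20 as reported) and for Per2 without BAT (-0.19) and with the mean of probe sets (-0.25, against 0.30 as reported). Without the replicate block on the animal number 4095 genes were called. Without any 1 animal the main effect was called for 3304 to 3657 genes (1640 to 1889 rising, 1621 to 1768 falling), with a shared sign for 2833 to 3095. The count called in each tissue was less stable: without any 1 animal it was 271 to 364 (123 to 190 rising, 145 to 176 falling). It was 214 on the first scan day alone (82 rising, 132 falling) and 100 on the second (50 and 50), where fewer arrays entered, 103 with the muscle covariate (52 and 51), and 649 with the scan day as a block (350 falling). The first-day count rests on 1 fasted WAT array against 2 fed ones, so its WAT calls have no spread among fasted animals. That count is not read as a result and cannot be set beside the second-day count. Median centring left 113 rising, 333 in all. Without the fed BAT array high in muscle markers it was 408, and without the 2 fasted WAT arrays 307. The causes were not tested. Dim genes such as Pnpla3 in liver are limited by signal over background.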
